A study of Arabidopsis thaliana with 12 samples.

Results

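The ceh1 mutation was examined in Arabidopsis thaliana plants without a working ICS1 gene, by comparing ceh1/eds16 double mutant rosettes with rosettes of the eds16 single mutant. The comparison used 6 of the 12 libraries, 3 per genotype. It covered the 18289 of 33602 genes whose mean normalized count over the 12 libraries was at least 10. This filter used no genotype labels, but it was not blind to expression. A gene with few counts in some genotypes entered only if its counts in others were high enough. Genes called measured below are those that passed this filter, and shares of list members leave out the rest. The other 6 libraries, from Col-0 (the wild type) and the ceh1 single mutant, entered the same model and were otherwise used only to ask whether the ceh1 effect differed with ICS1. All plants were 3 weeks old and grown on soil with 16 h of light and 8 h of darkness, and polyadenylated RNA was taken from rosettes. Both groups of the comparison carry the eds16 mutation, and only ceh1/eds16 also carries ceh1. The sources used here give neither the hour of harvest nor the number of plants per library.

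The ceh1 mutation lies in the gene of HDS, an enzyme of the plastid MEP pathway of isoprenoid synthesis, and lets its substrate, methyl-erythritol cyclodiphosphate, build up, a compound known as a signal from plastid to nucleus. ICS1 makes the precursor of most of the salicylic acid produced under stress, and eds16 is a mutant of ICS1. In wild-type plants salicylic acid acts through the receptor NPR1 and TGA factors on defence genes such as PR1, so a change that remains between ceh1/eds16 and eds16 is one seen without that supply of salicylic acid.

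ICS1 (AT1G74710, chromosome 1, 28070295 to 28074177, build TAIR10.1) read 19.2, 16 and 10.4 normalized counts in the 3 eds16 libraries against 14.2, 20.5 and 28.3 in the 3 of ceh1/eds16, against 224 to 277 in Col-0. The transcript was at a low level in all 6 libraries of the comparison, which overlapped (log2 difference 0.43 ± 0.23 (SE), adjusted p = 0.145, limma), though the difference passed without replicate 1 of ceh1/eds16. HDS (AT5G60600, chromosome 5, 24358885 to 24363485) read 3955, 3383 and 3711 in eds16 against 2237, 2649 and 2128 in ceh1/eds16. All 3 double mutant libraries lay below all eds16 libraries, and the transcript was 1.58-fold lower (log2 -0.66 ± 0.13, adjusted p = 0.000437). HPL1 (AT4G15440), the hydroperoxide lyase gene whose constitutive expression gave the ceh1 mutant its name, read 98.8, 83.8 and 74.6 in eds16 against 207, 241 and 218 in ceh1/eds16, a rise of 2.58-fold without overlap.

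Transcript levels differed between the 2 genotypes across much of the genome. Of the genes tested, 42.30% passed an adjusted p of 0.05, 22.07% with a higher and 20.23% with a lower level in ceh1/eds16. Calls of at least 2-fold made up 10.04% of genes higher and 7.49% lower, and the 3 libraries of ceh1/eds16 lay above all 3 of eds16 for 25.38% and below them for 23.75%. Large changes were mostly rises: 811 genes rose and 224 fell at least 4-fold, and 170 rose and 16 fell at least 16-fold. The median log2 difference over all genes tested was 0.005. Under scaling to equal library totals that median was 0.115, and the split of called genes moved from 4036 higher and 3700 lower to 5019 higher and 2831 lower. Fold changes here are on the scale of log2(normalized count + 1), on which changes of genes with few reads come out too small, and levels are not comparable between genes because they are not scaled to gene length. In whole rosettes, fewer cells of a type and less RNA per cell cannot be told apart.

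The 6 libraries held 6478773 to 8897940 reads in genes. Within eds16 the median gene differed from the mean of the other 2 libraries by 0.13 to 0.18 on the log2 scale. Within ceh1/eds16 the same figure was 0.19 and 0.22 for replicates 1 and 2 and 0.32 for replicate 3. The deviations within ceh1/eds16 went with gene length, and those within eds16 did not. Across 18266 genes with an annotated length, introns included, Spearman's rho was between -0.07 and 0.04 in the eds16 libraries. It was 0.33, 0.58 and -0.61 in replicates 1 to 3 of ceh1/eds16. Each library is set against the other 2 of its group, so a trend in 1 library forces opposite trends in the others. The 3 values of a group are therefore not separate observations. With genes split by length into 5 equal groups, the median deviation of replicate 3 was 0.49 in the shortest group (up to 1643 bases) and -0.39 in the longest (from 3717 bases). The comparison itself carried a smaller trend, with a median log2 difference of 0.07 in the shortest and -0.11 in the longest group, and of -0.09 and 0.01 without replicate 3. These correlations are over genes of the same libraries and are given as a description. The part of gene length in any single result was not tested. Several counts that changed without replicate 3 are given below with and without it, but smaller changes are not all given.

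**Figure D1:**
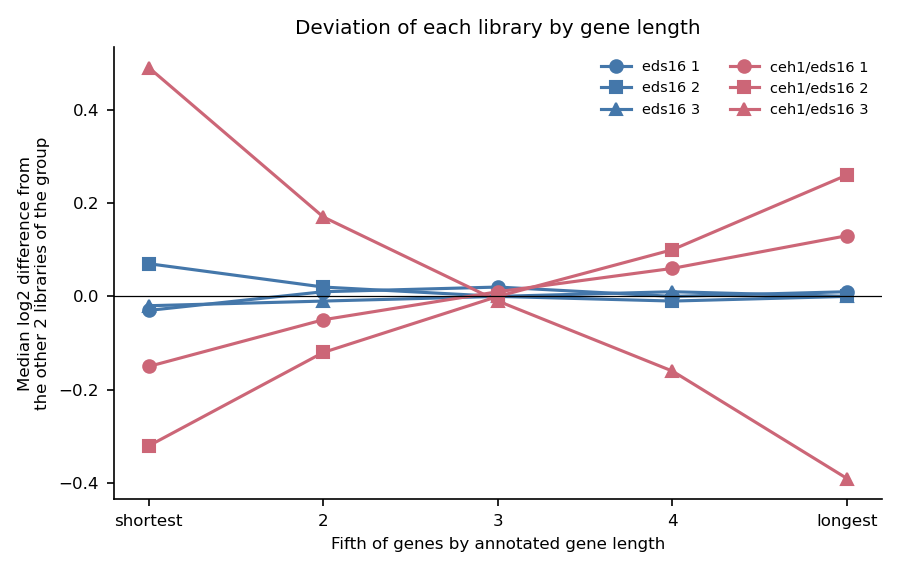
Median log2 difference of each library from the other 2 libraries of its group, on the vertical axis, in 5 equal groups of genes ordered by annotated gene length, on the horizontal axis. The 3 eds16 lines stay between -0.03 and 0.07, while ceh1/eds16 replicate 3 runs from 0.49 to -0.39 and replicate 2 from -0.32 to 0.26.

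The sequence before the transcript start was set beside the largest changes, because several of the gene groups described below are known to be controlled through short promoter motifs. The sequences are from the RefSeq assembly TAIR10.1 and give the 200 bases that end just before the annotated transcript start, 5′ to 3′ on the strand of the gene. Capitals mark matches, on either strand, to any of 8 motifs: the W box bound by WRKY factors (TTGACC or TTGACT), the as-1 core bound by TGA factors (TGACG), the G box (CACGTG), the GCC box bound by ERF factors (GCCGCC), the endoplasmic reticulum stress element ERSE (CCAAT, 9 bases of any kind, then CCACG), the rapid stress response element RSRE (CGCGTT), the evening element of clock-controlled genes (AAAATATCT) and the telo box (AAACCCTA). Shown first are the 2 named genes with the largest rise, the defensin gene PDF1.3 (chr2:11087080-11087279, plus strand) and CCOAMT (chr1:25487482-25487681, plus strand), which each hold 1 W box. The 2 named genes with the largest fall follow, the wax genes CER4 (chr4:16207957-16208156, minus strand) and MAH1 (chr1:21385710-21385909, minus strand), with none of the motifs. The last 3 each had the largest rise among the genes of 1 list that hold a motif: among endoplasmic reticulum chaperones with an ERSE, evening clock genes with an evening element and WRKY factors with a W box. They are the chaperone gene SHD (chr4:12556059-12556258, minus strand), the clock gene BOA (chr5:24003688-24003887, plus strand) and the transcription factor gene WRKY75 (chr5:4151202-4151401, minus strand).
PDF1.3: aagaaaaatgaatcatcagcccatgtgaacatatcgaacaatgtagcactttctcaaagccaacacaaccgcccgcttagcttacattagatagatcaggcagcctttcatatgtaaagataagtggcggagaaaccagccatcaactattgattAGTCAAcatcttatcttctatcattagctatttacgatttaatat
CCOAMT: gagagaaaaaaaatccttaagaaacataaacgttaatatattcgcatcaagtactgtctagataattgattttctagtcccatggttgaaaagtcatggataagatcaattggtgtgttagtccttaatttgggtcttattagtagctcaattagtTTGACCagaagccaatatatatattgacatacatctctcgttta
CER4: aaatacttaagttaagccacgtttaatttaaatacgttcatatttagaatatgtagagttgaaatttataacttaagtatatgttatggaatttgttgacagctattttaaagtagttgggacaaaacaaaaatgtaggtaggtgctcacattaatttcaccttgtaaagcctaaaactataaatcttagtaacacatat
MAH1: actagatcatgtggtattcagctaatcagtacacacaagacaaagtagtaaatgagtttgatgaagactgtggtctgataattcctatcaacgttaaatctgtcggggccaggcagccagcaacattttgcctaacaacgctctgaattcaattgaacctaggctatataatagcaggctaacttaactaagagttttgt
SHD: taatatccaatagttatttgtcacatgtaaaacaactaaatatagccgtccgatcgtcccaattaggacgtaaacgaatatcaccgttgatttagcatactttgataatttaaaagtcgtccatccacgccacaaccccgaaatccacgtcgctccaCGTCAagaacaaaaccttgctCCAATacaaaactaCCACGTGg
BOA: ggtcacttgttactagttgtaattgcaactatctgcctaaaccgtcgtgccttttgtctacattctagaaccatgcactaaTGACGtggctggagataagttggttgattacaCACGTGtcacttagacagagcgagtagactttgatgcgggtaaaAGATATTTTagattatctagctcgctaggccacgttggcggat
WRKY75: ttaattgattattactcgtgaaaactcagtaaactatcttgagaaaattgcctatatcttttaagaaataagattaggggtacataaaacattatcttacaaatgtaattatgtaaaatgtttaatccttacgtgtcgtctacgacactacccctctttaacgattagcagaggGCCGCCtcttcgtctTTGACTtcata

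In SHD the ERSE and the G box share bases at the end of the sequence, and motifs were counted separately with such overlaps allowed. A match is a description of these letters and not of a bound site. Among the 17895 genes tested that have a window of 250 bases before and 50 bases after the start, a W box was present in 32.6%, against 46.4% of the 1802 genes that rose at least 2-fold, 57.8% of the 166 that rose at least 16-fold and 26.2% of the 1336 that fell at least 2-fold. The RSRE was present in 3.79% of all windows, 6.55% of those of genes that rose at least 2-fold and 2.4% of those that fell. The evening element was present in 3.17%, 5.77% and 2.47% in the same order, the GCC box in 2.63%, 3.55% and 0.823%, and the as-1 core in 23.9%, 27.4% and 21.7%. For the telo box, a motif common in genes of translation and cell growth, the shares were 5.59%, 2.83% and 3.07%, and for the G box 8.94%, 9.6% and 9.66%. The ERSE was rare, in 0.497% of all windows, but stood in 4 of 16 windows of the chaperone list described below.

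The largest rises among genes with a symbol and a mean of at least 100 normalized counts in the higher group included genes of defence and stress. PDF1.3 (AT2G26010) read 4.8, 6.65 and 6.22 in eds16 against 699, 473 and 1601 in ceh1/eds16, 118-fold higher (log2 6.89 ± 0.35, adjusted p = 1.32e-10). The double mutant libraries were all far above eds16, and replicate 3 was the highest of them. CCOAMT (AT1G67980), annotated as a methyltransferase acting on caffeoyl-CoA, read 0.96, 6.65 and 6.22 against 498, 483 and 503, a rise of 104-fold (log2 6.70 ± 0.37). COR27 (AT5G42900), a cold- and clock-regulated gene, read 6.72, 6.65 and 14.5 against 639, 771 and 954 (80.2-fold). In both genes the groups were far apart. The eds16 readings were low and spread by library, so the size of these folds is uncertain.

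Other rises of this size were in a chaperone, a monooxygenase and respiratory and detoxifying enzymes. The endoplasmic reticulum chaperone gene BIP3 (AT1G09080) read 23, 14.6 and 19.7 in eds16 against 1546, 1725 and 1698 in ceh1/eds16 (83.6-fold). FMO1 (AT1G19250), whose enzyme makes the systemic immune signal N-hydroxypipecolic acid, read 5.76, 2.66 and 8.29 against 529, 548 and 402 (79.9-fold). The dark-inducible beta-glucosidase gene DIN2 rose 67.1-fold, the stress transcription factor gene DREB2C 62.1-fold, the annotated chitinase gene CHI (AT2G43570) 51.2-fold and AOX1D, an alternative oxidase of mitochondria, 47.8-fold. CYP71A12, a cytochrome P450 of indole defence compounds, rose 46.2-fold, GSTU4, a glutathione transferase, 43.1-fold, PCR2, which exports zinc, 38-fold, and the zinc finger gene PMZ 37.8-fold. PR2, a secreted glucanase, rose 35.2-fold and PNP-A, a small secreted peptide, 35.1-fold. None of these 15 genes had overlapping groups, as their selection required.

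Among genes with a symbol and a mean of at least 100 in the higher group, the largest falls included genes of the leaf surface, light harvesting and growth. Genes below that level are given with their lists. CER4 (AT4G33790), the fatty acyl-CoA reductase that makes primary alcohols of the wax, read 147, 124 and 144 in eds16 against 2.67, 5.39 and 3.9 in ceh1/eds16, 28.5-fold lower (log2 -4.83 ± 0.25, adjusted p = 1.73e-10). MAH1 (AT1G57750), which hydroxylates wax alkanes, read 179, 216 and 162 against 7.11, 11.9 and 5.86 (20.7-fold lower). Both genes were thus at a few counts in every double mutant library. CSLA1, of the glucomannan synthase family, fell 15.5-fold, the beta-glucosidase gene BGLU47 12.4-fold, the beta-amylase gene BAM5 11.2-fold, SAUR66 8.61-fold, the xyloglucan enzyme gene XTH31 8.04-fold, the B-box gene BBX16 7.02-fold, the growth-promoting helix-loop-helix gene PRE1 6.99-fold, bZIP3 6.85-fold, DOT3 6.67-fold and the carotene hydroxylase gene BETA-OHASE 2 6.58-fold. LHCB2.3, PORA and PRR9 completed the list at 13.7-fold, 9.14-fold and 7.89-fold. In LHCB2.3 (AT3G27690), a light-harvesting protein of photosystem II, the readings were 6841, 8356 and 7535 against 613, 487 and 555.

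**Figure D2:**
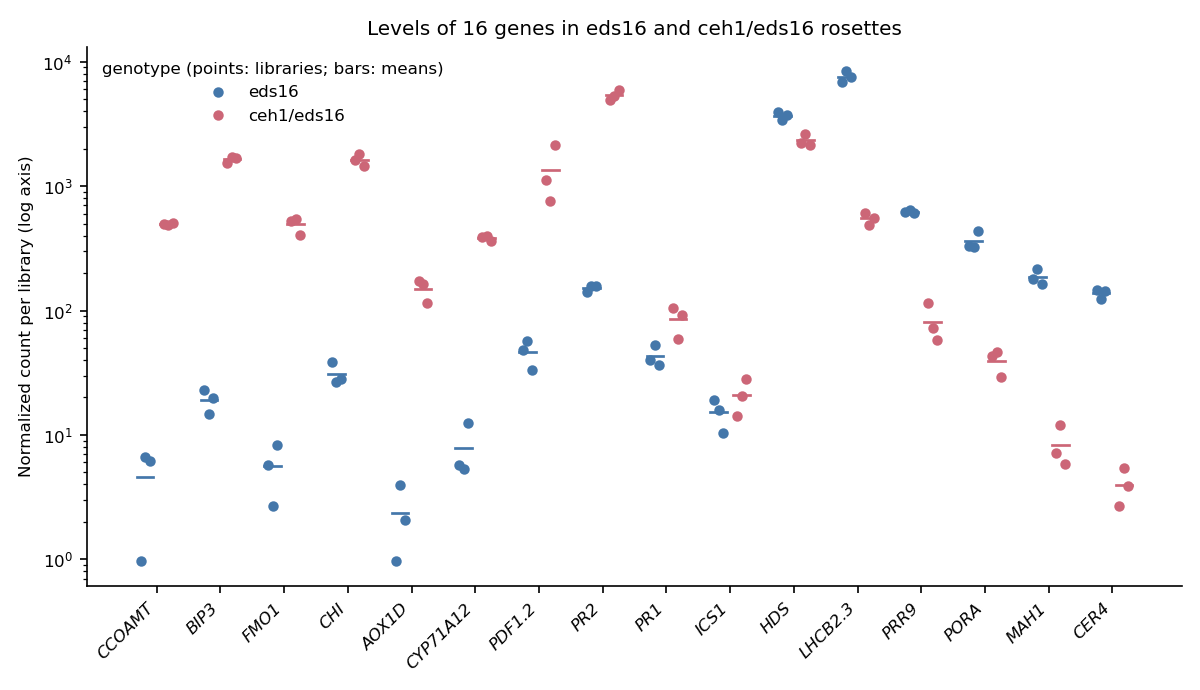
Normalized count in each library, on a logarithmic vertical axis, for 16 genes on the horizontal axis, with bars at the group means of eds16 and ceh1/eds16. The groups lie apart for every gene shown except ICS1, where eds16 (10.4 to 19.2) and ceh1/eds16 (14.2 to 28.3) overlap, and levels are not comparable between genes.

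Known pathways were followed in 80 gene lists with 1958 measured genes. Lists in which most measured members rose included those of pathogenesis-related proteins, wall-associated and cysteine-rich receptor kinases, ERF factors, JAZ repressors, camalexin synthesis, senescence, the evening clock and endoplasmic reticulum chaperones. Lists with frequent falls included the morning clock, the antenna, flavonoids, photosystems, aliphatic glucosinolates, aquaporins and chlorophyll synthesis. All counts below are read against the 22.07% of genes higher and 20.23% lower over all genes tested, and medians against the overall median of 0.005.

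**Figure D3:**
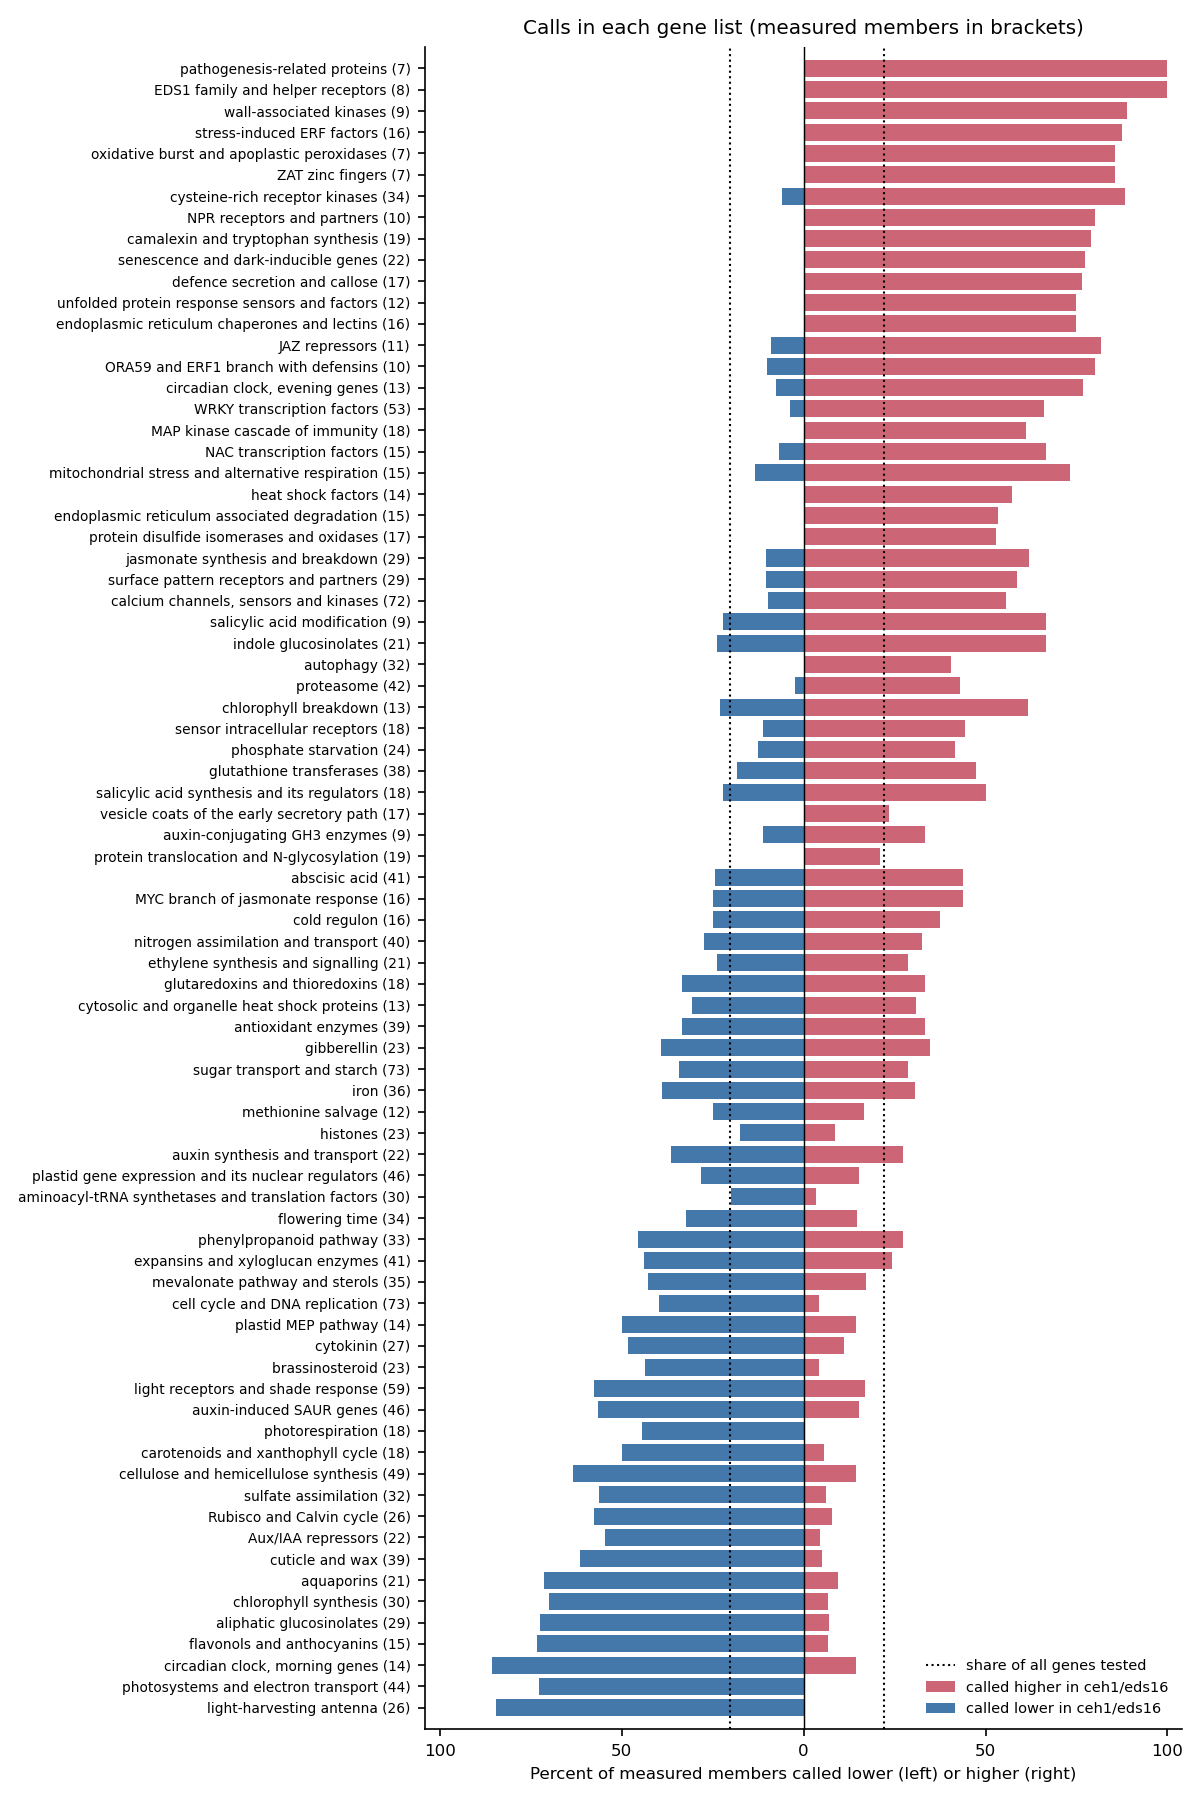
Percent of the measured members of each gene list called higher (right, red) or lower (left, blue) in ceh1/eds16, with the number of measured members in brackets and dotted lines at the shares over all genes tested, 22.07% and 20.23%. Lists are ordered by the share called higher minus the share called lower. Those near the top hold mostly higher calls, such as 7 of 7 pathogenesis-related genes, and those near the bottom mostly lower calls, such as 22 of 26 antenna genes.

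Genes of the salicylic acid pathway rose in part although the ICS1 transcript stayed low. Of 18 synthesis genes and regulators 9 rose and 4 fell (median log2 0.41). EDS5, which exports the ICS1 product from the plastid, read 35.5, 34.6 and 22.8 in eds16 against 538, 545 and 326 in ceh1/eds16 (14.6-fold, log2 3.87 ± 0.23). PBS3, the enzyme that conjugates that product to glutamate, rose from 112 ± 9.24 to 1101 ± 143 (mean ± SD, n = 3; 9.74-fold), and CBP60G, a transcription factor that activates ICS1 in wild-type plants, rose from 103 ± 15 to 1333 ± 259 (12.7-fold). The other route to salicylic acid starts with phenylalanine ammonia-lyase, where PAL1 did not pass the test (504 ± 26.1 and 485 ± 69) and PAL2 fell 1.82-fold. ICS2, the second isochorismate synthase gene, fell 2.61-fold and EPS1, which releases salicylic acid from the PBS3 product, 2.19-fold. Enzymes that modify salicylic acid rose in 6 of 9 cases and fell in 2, with the hydroxylases DLO1 (13.1-fold) and DMR6 (6-fold) leading and the methyl salicylate esterase gene MES7 falling 3.42-fold.

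Defence genes downstream split by gene. All 7 measured pathogenesis-related genes rose (median log2 2.28), and PR2 read 140.1, 158 and 158 in eds16 against 4927, 5278 and 5986 in ceh1/eds16. PR1 (AT2G14610), the usual marker of salicylic acid response, read 40.3, 53.2 and 36.3 against 105, 59.3 and 92.7, a rise of 1.93-fold (adjusted p = 0.0102) that did not pass the test without replicate 1 of ceh1/eds16. Its highest double mutant library, at 105, lay below the lowest Col-0 library, at 181. The difference of this ceh1 effect from the one between ceh1 and Col-0 was -3.66 ± 0.39 on the log2 scale (adjusted p = 6.2e-05), while for PR2 it was 1.82 ± 0.23 (adjusted p = 0.00025), that is, in the opposite direction. NIMIN1, an NPR1-binding repressor, read 6.72, 5.32 and 9.32 against 13.3, 11.9 and 22.5. Its rise did not pass from the 6 libraries alone, without eds16 replicates 1 or 2 or without ceh1/eds16 replicate 3. Of 10 NPR receptors and partners 8 rose, 5 of them at least 2-fold, with NIMIN-2 at 4.88-fold, NPR3 at 2.13-fold and NPR1 itself at 1.46-fold, while TGA2 did not pass and NPR4 passed only without ceh1/eds16 replicate 3.

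Upstream immune signalling rose in most of its known parts. All 8 measured members of the EDS1 family and helper receptor list, which also includes NDR1 and RIN4, rose (median log2 1.77). EDS1 read 286, 265 and 277 in eds16 against 1132, 1111 and 1076 in ceh1/eds16 (4-fold). SAG101 rose 4.64-fold, PAD4 3.9-fold and the helper receptor gene ADR1 4.26-fold. FMO1 was joined by ALD1, which makes its substrate's precursor from lysine and rose 11-fold. Among 34 cysteine-rich receptor kinases 30 rose and 2 fell (median 1.84). CRK37 read 15.4, 13.3 and 15.5 against 442, 428 and 382 (26.6-fold), while CRK21 fell from 660.2, 632 and 862 to 237, 176 and 132 (4.01-fold) and CRK42 fell 3.31-fold. Wall-associated kinases rose in 8 of 9 cases, led by WAKL10 (26.9-fold) and WAK3 (13.3-fold).

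Surface pattern receptors and partners rose in 17 of 29 cases and fell in 3. RLP23, the receptor of a microbial necrosis peptide, rose 11.6-fold and its partner SOBIR1 5.33-fold. The flagellin receptor FLS2 read 271 ± 31.1 and 206 ± 10.9 and was called lower by 1.31-fold. That call did not pass from the 6 libraries alone, without eds16 replicate 3 or under equal library totals. Of 18 sensor intracellular receptors 8 rose and 2 fell, and 13 rose without ceh1/eds16 replicate 3, of which ZAR1 rose 2.21-fold in all libraries. The immune MAP kinase cascade rose in 11 of 18 cases with none lower, and MPK3 read 933, 1043 and 979 against 3639, 3633 and 3087 (3.5-fold), whereas MPK6 did not pass (735 ± 47.4 and 765 ± 37.5). Of 17 genes of defence secretion and callose 13 rose and none fell, led by the syntaxin SYP122 (10.07-fold). The burst oxidase RBOHD rose 2.96-fold and 5 of 5 apoplastic peroxidases rose by 2.07 to 15-fold, whereas RBOHF did not pass (215 ± 18.18 and 235 ± 66.6).

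Early stress transcription factors rose widely. Of 53 WRKY factors 35 rose and 2 fell (median 1.42), or 1 without eds16 replicate 2. WRKY40, a repressor induced by many stresses, read 14.4, 23.9 and 25.9 in eds16 against 719, 626 and 759.5 in ceh1/eds16 (32.2-fold), and WRKY75 read 2.88, 0 and 3.11 against 105, 90.6 and 97.6 (39.2-fold). Both were far apart between groups. A W box stood in 21 of 53 WRKY windows and in 23 of 34 windows of the cysteine-rich receptor kinases, against 32.6% of all windows. The zinc finger genes ZAT10, ZAT12 and ZAT7 rose 34, 30.1 and 29.6-fold among 6 of 7 ZAT members that rose, and 14 of 16 stress-induced ERF factors rose (median 3.43), with RRTF1 at 30.1-fold and ERF11 at 30-fold. Of 15 NAC factors 10 rose, led by JUB1 (16.6-fold), and 1 fell, a call that did not pass without eds16 replicate 1.

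Calcium sensors, channels and kinases rose in 40 of 72 cases and fell in 7 (median 0.66), or 47 rose and 5 fell without ceh1/eds16 replicate 3. The calmodulin-like gene CML12 read 804, 971 and 1108 in eds16 against 8820.1, 9027 and 9314 in ceh1/eds16 (9.49-fold), and GLR2.8, CML37 and CML41 rose 23.2, 22.9 and 19.7-fold. The glutamate receptor-like genes GLR3.6, GLR3.2 and GLR3.1, which serve wound signals in the vasculature, fell 2.38, 2.19 and 2.13-fold. Among cold-responsive genes the factors CBF1 and CBF2 rose 6.32-fold and 4.28-fold while ERD10 (1314 ± 91.6 and 1339 ± 331) and KIN2 (1003 ± 124 and 1202 ± 569.7) did not pass, and COR413IM1 fell 1.97-fold. Heat shock factors rose in 8 of 14 cases, with HSFA8 at 5.68-fold and HSFA4A at 4.91-fold. Cytosolic and organelle heat shock proteins showed no common direction, with 4 higher and 4 lower of 13, or 2 higher without eds16 replicate 2 or without ceh1/eds16 replicate 3, and HSP18.2 fell 4.07-fold.

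The unfolded protein response, which adjusts the folding capacity of the endoplasmic reticulum, had most of its genes higher in the double mutant. Of 12 sensors and factors 9 rose and none fell (median 1.01). BZIP60, the factor spliced by IRE1, read 219.7, 225 and 203 in eds16 against 966, 1136 and 1651 in ceh1/eds16 (5.63-fold), with replicate 3 highest, and its target NAC103 read 11.5, 14.6 and 17.61 against 268, 246 and 205 (15.5-fold), with replicate 3 lowest. The anti-death gene BI1 rose 4.43-fold and TIN1 12.3-fold. Of 16 chaperones and lectins 12 rose (median 1.09), including SHD, the organelle's HSP90, which read 2407, 2367 and 2623 against 5574, 6135 and 5151 (2.28-fold). Disulfide isomerases and oxidases rose in 9 of 17 cases, with ERO1 at 39.3, 37.2 and 38.3 against 406, 357 and 304 (9.01-fold). None of these lists held a fallen gene.

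Rises of at least 2-fold were rarer in the lists of protein degradation, translocation, vesicle coats, the proteasome and autophagy than in those just described. Of 15 genes of protein degradation from the endoplasmic reticulum 8 rose, 1 of them, HRD1B, at least 2-fold (2.29-fold). In protein translocation and N-glycosylation 4 of 19 rose, a share below the 22.07% of all genes, and leaving out single libraries gave 1 (without eds16 replicate 2 or ceh1/eds16 replicate 1), 2 (without ceh1/eds16 replicate 2) or 9 (without ceh1/eds16 replicate 3). Among 17 vesicle coat genes 4 rose, or 7 without ceh1/eds16 replicate 3. SEC31A, a coat protein, read 59.5, 59.9 and 52.8 in eds16 against 1046, 966 and 544 in ceh1/eds16 (14.1-fold), while its paralog SEC31B did not pass (738 ± 64.9 and 651 ± 143). The proteasome rose in 18 of 42 cases by small amounts (median 0.32), or in 28 under equal library totals, 11 under an equal upper quartile and 12 without eds16 replicate 1 or from the 6 libraries alone, and its regulator NAC053 rose 3.88-fold. Of 32 autophagy genes 13 rose and none fell, with the cargo receptor NBR1 at 2.65-fold. No difference of the ceh1 effect from that in the ICS1 background passed the test for BZIP60 (0.01 ± 0.23), NAC103 (-0.38 ± 0.35), ERO1 (-0.05 ± 0.21) or SHD (-0.25 ± 0.16), while BIP3 passed with 1.22 ± 0.22 (adjusted p = 0.00426).

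Jasmonate synthesis and repressor genes rose, the MYC branch of the response was split and most of the ORA59 branch rose. Jasmonate synthesis and breakdown genes rose in 18 of 29 cases and fell in 3 (median 0.57). The cyclase gene AOC3 read 43.2, 37.2 and 21.8 in eds16 against 314, 307 and 375 in ceh1/eds16 (9.83-fold), without overlap, and the jasmonate hydroxylase gene CYP94B3 rose 11.6-fold. Of 11 genes in the JAZ repressor list, which includes the adaptor NINJA, 9 rose and 1, JAZ3, fell, and JAZ1 read 233, 383 and 201 against 2293, 1893 and 1699.6 (7.41-fold). In the MYC branch 7 of 16 rose and 4 fell: the tyrosine aminotransferase TAT3 rose 10.3-fold, while the factor MYC4 fell 2.64-fold and VSP2, a storage protein marker of that branch, fell from 2062, 3422 and 859.8 to 661, 747 and 792 (2.49-fold). The VSP2 groups did not overlap, although eds16 ranged widely.

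In the ORA59 branch, which joins jasmonate and ethylene, 8 of 10 genes rose and 1 fell (median 4.52). ORA59, its transcription factor, read 3.84, 10.6 and 14.5 in eds16 against 178, 137 and 271 in ceh1/eds16 (19.7-fold, log2 4.3 ± 0.36). Its defensin target PDF1.2 (AT5G44420) read 48, 57.2 and 33.1 against 1121, 756 and 2153 (26.6-fold), and PDF1.2b, PDF1.2c and PDF1.4 rose 34, 29.6 and 36.7-fold. Within ceh1/eds16 replicate 3 was the highest library for ORA59, PDF1.2, PDF1.2b, PDF1.2c and PDF1.3. Several of the defensin genes are near-identical copies, so the split of reads among such copies is uncertain. The thionin gene THI2.2 went the other way, from 255, 519 and 416 to 123, 94.9 and 112 (3.46-fold lower). In ceh1 with ICS1 intact PDF1.2 read 13.6, 17.9 and 8.97, near the Col-0 values of 20.21, 17.8 and 15.5, and the difference between the 2 ceh1 effects was 5.15 ± 0.45 for PDF1.2 (adjusted p = 9.49e-06) and 2.98 ± 0.50 for ORA59 (adjusted p = 0.0028). A GCC box, the motif bound by ORA59-type factors, stood in 3 of 10 windows of the list, against 2.63% of all windows. Ethylene synthesis and signalling genes had 6 higher and 5 lower of 21, or 3 higher without eds16 replicate 2 or ceh1/eds16 replicate 2, and the synthase ACS6 read 83.5, 81.2 and 132 against 622, 670.0 and 596 (6.47-fold).

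Transcripts of camalexin and indole glucosinolate synthesis, which start from tryptophan, mostly rose, and those of aliphatic glucosinolate synthesis, which starts mainly from methionine, mostly fell. Of 19 camalexin and tryptophan genes 15 rose and none fell (median 1.71), or 1 fell without ceh1/eds16 replicate 1. PAD3 (AT3G26830), the last enzyme of camalexin synthesis, read 46.1, 31.9 and 46.6 in eds16 against 1281, 1089 and 1162 in ceh1/eds16 (28-fold), without overlap, and GSTF6, which supplies a glutathione step, rose 24.2-fold, a value uncertain for its near-identical copy GSTF7 (30-fold). Indole glucosinolate genes rose in 14 of 21 cases and fell in 5, or in 3 without eds16 replicate 2. Their activator MYB51 read 84.4, 89.1 and 111 against 1035, 1011 and 1048 (10.8-fold) and the hydroxylase CYP81F2 rose 17.7-fold, whereas the related activator MYB34 fell 2.13-fold. Among breakdown proteins ESP fell from 405, 386 and 334 to 96.9, 127 and 151 (3.02-fold) and the myrosinase TGG2 fell 2.34-fold.

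Of 29 aliphatic glucosinolate genes 21 fell and 2 rose (median -1.12). MYB29, an activator of the pathway, read 571, 588 and 676 in eds16 against 162, 152 and 134 in ceh1/eds16 (4.08-fold lower, log2 -2.03 ± 0.17), without overlap. FMO GS-OX3, which oxidises the side chain, fell 3.35-fold and GSTU20 3.5-fold, while the chain-elongating synthase MAM3 rose from 29.7, 49.2 and 50.8 to 116, 119.8 and 125 (2.82-fold) and the transporter GTR1 rose 1.38-fold. Sulfate assimilation genes, which supply these compounds with sulfur, fell in 18 of 32 cases and rose in 2 (median -0.41). APR2, a key reductase of that pathway, read 1217, 1157 and 1371 against 278, 269 and 312 (4.34-fold lower), and SULTR3;1 fell 4.23-fold and SDI1 4.04-fold.

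**Figure D4:**
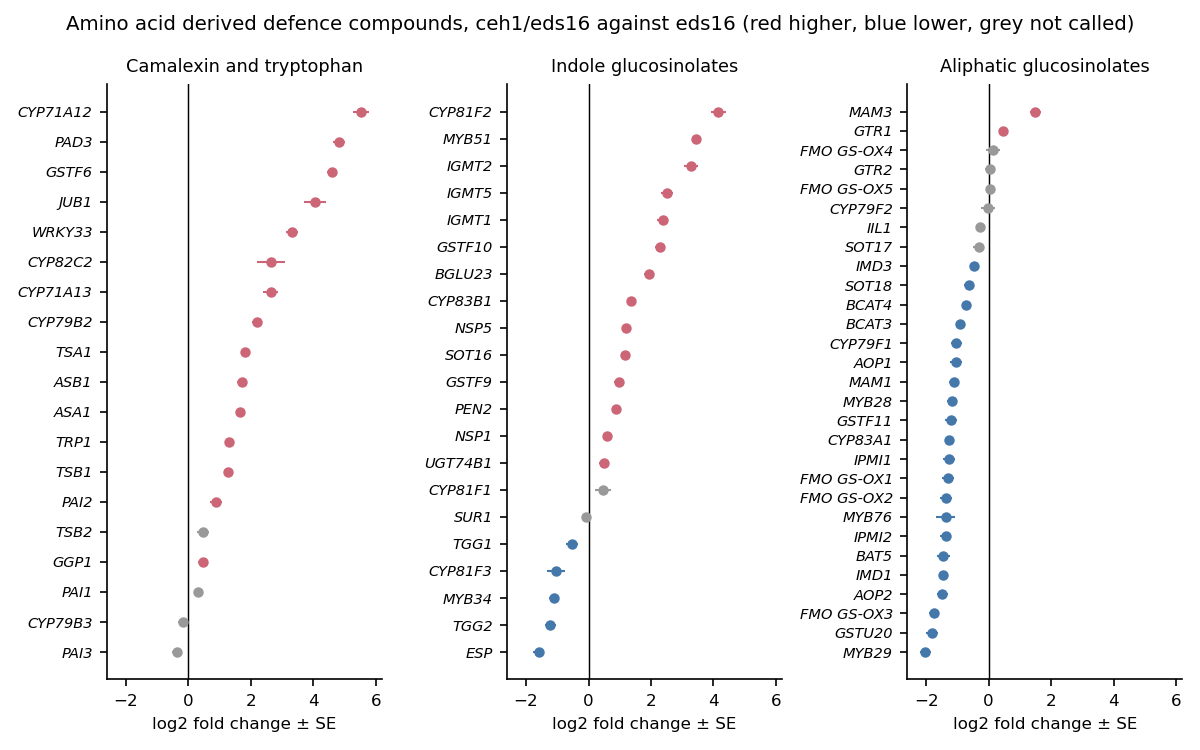
Log2 fold change with its standard error (horizontal axis, ceh1/eds16 against eds16) for each measured gene of the camalexin and tryptophan, indole glucosinolate and aliphatic glucosinolate lists, red where called higher, blue where called lower and grey where not called. Most points of the first 2 panels lie to the right of 0 and most of the aliphatic panel to the left, with MYB51 at 3.44 and MYB29 at -2.03.

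Phenylpropanoid genes were split, with 9 higher and 15 lower of 33. MYB15, an activator of the lignin and scopoletin branches, read 5.76, 7.98 and 11.4 in eds16 against 253, 204 and 307 in ceh1/eds16 (27.7-fold), and F6'H1, which makes scopoletin, rose 22.3-fold and CAD8 20.13-fold. C4H and PAL1 did not pass (1053 ± 55.7 and 1057 ± 11.2 for C4H), while the laccase gene LAC17 fell 3.16-fold and 4CL3 2.86-fold. Flavonol and anthocyanin genes fell in 11 of 15 cases and 1, TTG1, rose. Chalcone synthase TT4, the entry enzyme, read 415, 460.3 and 326 against 83.6, 102 and 109 (4.02-fold lower), and LDOX and FLS1 fell 3.5-fold and 3.15-fold.

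Isoprenoid genes fell more often than they rose. The MEP pathway list contains HDS and also genes outside that pathway, such as GGR and TPS03. In this list 7 of 14 genes fell and 2, GGR among them, rose (median -0.35). Only 1 rose without any 1 of eds16 replicates 2 and 3, ceh1/eds16 replicate 3, ceh1 replicates 1 and 2 and Col-0 replicate 1. DXS, the entry enzyme of the MEP pathway, read 7131, 7149 and 6666 in eds16 against 2609, 2781 and 1775 in ceh1/eds16 (2.98-fold lower, log2 -1.57 ± 0.15), without overlap. ISPF, which makes methyl-erythritol cyclodiphosphate, did not pass (899.6 ± 65.7 and 853 ± 164). In the mevalonate and sterol list 15 of 35 fell and 6 rose. SQS2, of the squalene synthase family, fell 5.28-fold and the epoxidase SQE5 3.24-fold. The epoxidase SQE6 rose 4.05-fold and CYP710A1, which makes stigmasterol, rose from 0.691 ± 1.2 to 24.3 ± 9.81. Carotenoid genes fell in 9 of 18 cases, with the cleavage enzyme CCD4 2.73-fold and the epoxidase ABA1 2.53-fold lower.

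Chlorophyll synthesis genes fell in 21 of 30 cases and rose in 2 (median -0.55). GUN5, a subunit of magnesium chelatase, read 19329.8, 18505 and 19615 in eds16 against 5785, 6695 and 4868 in ceh1/eds16 (3.34-fold lower), its activator GUN4 read 1643, 2062 and 1344 against 422, 389 and 451 (3.94-fold lower), and PORA read 333, 327 and 435 against 42.7, 46.4 and 29.3. All 3 were without overlap. The ferrochelatase FC1, on the branch to haem, went the other way, from 242, 199.6 and 272 to 753, 763 and 673 (3.08-fold). Chlorophyll breakdown genes rose in 8 of 13 cases and fell in 3, 1 of them at least 2-fold. The chlorophyll b reductase NYC1 was 2.99-fold and HCAR, the reductase of the next step, 3.65-fold higher. PAO, the enzyme that opens the ring, did not pass (766 ± 168 and 765 ± 39.8).

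Genes of the photosynthetic apparatus fell, and few rose. Of 26 antenna genes 22 fell and none rose (median -1.19), and of 44 photosystem and electron transport genes 32 fell and none rose (median -0.84), or 1 rose without eds16 replicate 3 or Col-0 replicate 1. Without ceh1/eds16 replicate 3 the genes called lower were 25 in the antenna and 39 in the photosystem list. Besides LHCB2.3, LHCB2.1 and LHCB2.2 fell 4.05-fold and 3.62-fold, values uncertain for near-identical copies, and the thylakoid proteins PSBY, ATPD and PSAD-2 fell 3, 2.88 and 2.55-fold. PETC (10092 ± 162 and 8538 ± 2270.1) did not pass, except without ceh1/eds16 replicate 3. Rubisco and Calvin cycle genes fell in 15 of 26 cases by smaller amounts (median -0.48), with RBCS1A 1.68-fold and RCA 1.9-fold lower and the regulator CP12-2 2.15-fold higher. The RBCS1A call did not pass with no filter on low values. In photorespiration 8 of 18 fell and none rose, led by the peroxisomal catalase CAT2 at 4653, 5049 and 4532 against 1647, 1624 and 1429 (3.03-fold lower). Of the 6 markers of green leaf tissue 5 fell, with a summed level of 246043 to 253616 in the single against 115534 to 162519.6 in the double mutant.

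Some photosynthetic effects differed with ICS1, in either direction. The difference of the ceh1 effect from that in the presence of ICS1 passed for 2 of 26 antenna genes, both with a larger fall without ICS1. For LHCB2.3 it was -1.05 ± 0.20 (adjusted p = 0.00523), and for LHCB2.1 it was -0.73 ± 0.19 (adjusted p = 0.0396), which did not pass with no filter on low values, no variance trend or the replicate block, nor without Col-0 replicate 1, 2 or 3 or replicate 1 or 2 of any other genotype. In photorespiration it was higher without ICS1 for 10 of 18 genes and lower for none, and in the Rubisco and Calvin cycle list higher for 8 of 26 and lower for none, against 3.08% and 1.79% of all genes tested. SHM1, the mitochondrial enzyme that makes serine from glycine, read 26609.8, 26048 and 27032 in eds16 against 20805, 21354 and 21584 in ceh1/eds16, and 22644, 23927 and 23486 in Col-0 against 8314, 9346 and 9433 in ceh1, a difference of 1.05 ± 0.17 (adjusted p = 0.00175). The ceh1 readings lay far below all others, while ceh1/eds16 lay closer to eds16. These counts depended on the libraries. The photorespiration count was 4 without ceh1 replicate 1 and 6 without ceh1 replicate 2, Col-0 replicate 2 or ceh1/eds16 replicate 2. The Calvin count was 3 to 5 without any 1 of Col-0 replicates 1, 2 and 3, ceh1 replicates 1 and 2, eds16 replicates 1 and 3 and ceh1/eds16 replicate 2, 5 with an equal upper quartile and 4 with no filter on low values or with the replicate block. Without ceh1/eds16 replicate 3 the counts were 5 for the antenna, 12 for photorespiration and 10 for the Calvin list. The difference did not pass for PORA (0.34 ± 0.24), GUN5 (0.29 ± 0.23), DXS (-0.23 ± 0.21) or CAT2 (-0.05 ± 0.18).

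Clock genes of the morning were mostly lower and those of the evening mostly higher. Of 14 morning genes 12 fell and 2 rose (median -1.35), and of 13 evening genes 10 rose and 1 fell, or 2 fell without ceh1/eds16 replicate 3 (median 2.83). PRR9, a morning repressor, read 623, 639 and 606 in eds16 against 114, 72.3 and 57.6 in ceh1/eds16 (7.89-fold lower), and CCA1, a morning core factor, read 635, 632 and 562 against 153, 127 and 58.6 (5.78-fold lower). Both were without overlap and lowest in replicate 3. ELF4, a member of the evening complex, read 83.5, 158 and 64.2 against 1001, 1070.3 and 1928 (13.3-fold), and BOA, a relative of the evening complex factor LUX, read 11.5, 7.98 and 9.32 against 90.71, 127 and 177 (12.2-fold). Both were highest in replicate 3. FKF1, a light-sensing ubiquitin ligase subunit, read 54.7, 51.9 and 73.5 against 615, 743 and 695 (11.3-fold), with replicate 3 between the others.

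The 2 morning-list genes that rose were RVE2 (29.7, 29.3 and 47.7 against 307, 318 and 407) and PRR5 (321, 388 and 316 against 1706, 1517 and 871). PRR5 acts later in the day than PRR9 and PRR7, and RVE2 encodes a clock-controlled Myb factor related to CCA1. An evening element stood in 6 of 13 windows of the evening list and 3 of 14 of the morning list, against 3.17% of all windows. The fall of PRR9 was larger without ICS1 than with it (difference -1.55 ± 0.25, adjusted p = 0.0021), and the rise of BOA was larger (2.66 ± 0.41, adjusted p = 0.00145). The difference did not pass for PRR5 (-0.04 ± 0.28) or FKF1 (0.75 ± 0.27). The hour of harvest is not given in the sources used here, and a shift in clock time and a difference in the hour of harvest between genotypes cannot be told apart.

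**Figure D5:**
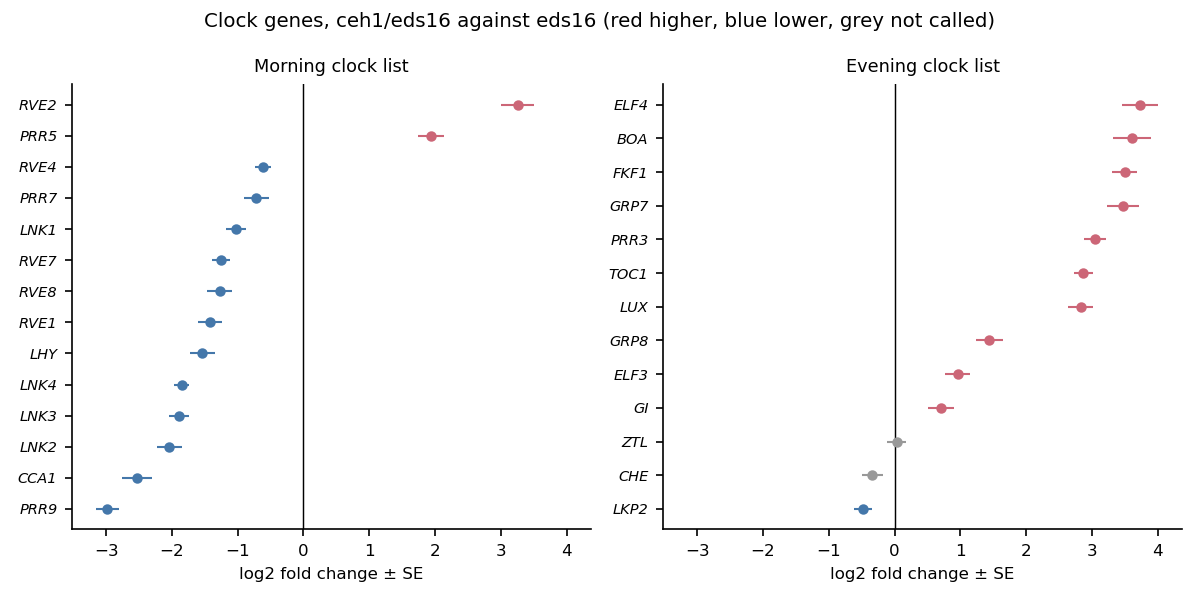
Log2 fold change with its standard error (horizontal axis, ceh1/eds16 against eds16) for the measured genes of the morning and evening clock lists, red where called higher, blue where called lower and grey where not called. In the morning panel 12 of 14 points lie below 0, with RVE2 and PRR5 above it, and in the evening panel 10 of 13 are called higher, up to ELF4 at 3.73.

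Light receptors and shade genes fell in 34 of 59 cases and rose in 10 (median -0.62). The B-box gene BBX7 read 67.2, 69.2 and 66.3 in eds16 against 1311, 1389 and 1292 in ceh1/eds16 (19.4-fold) and BBX8 rose 8.42-fold, while BBX16 read 605, 561 and 530.4 against 74.7, 71.2 and 94.7 and BBX30 fell 6.67-fold. B-box proteins are transcription regulators of light responses, so members of 1 family stood at both ends of the list. The shade marker PIL1 fell 4.68-fold, and COP1, PIF7 and BBX4 did not pass.

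Genes of the auxin and cytokinin responses fell more often than they rose. Of 46 auxin-induced SAUR genes 26 fell and 7 rose (median -0.96), with SAUR22 at 10.5-fold and SAUR66 at 8.61-fold lower, and of 22 Aux/IAA repressors 12 fell and 1 rose, or 2 rose without eds16 replicate 3 or ceh1/eds16 replicate 2. IAA6 fell 5.98-fold and IAA17 5.95-fold. Of 27 cytokinin genes 13 fell and 3 rose. ARR15, a fast-responding cytokinin target, read 72, 65.2 and 71.5 in eds16 against 3.56, 3.24 and 6.83 in ceh1/eds16 (13.2-fold lower), without overlap. Brassinosteroid genes fell in 10 of 23 cases, with the helix-loop-helix genes PRE1 and BEE1 6.99-fold and 4.09-fold lower, the synthesis gene CPD 1.56-fold lower and BRL3 4.39-fold higher. Gibberellin genes had no common direction, with 8 higher and 9 lower of 23: the receptor GID1B rose 4.46-fold and the synthesis gene GA20OX1 fell 5.54-fold, as did the inactivating oxidase GA2OX1 (12.4-fold).

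Cell wall and cuticle genes fell with them. Of 49 genes of cellulose and hemicellulose synthesis 31 fell and 7 rose (median -0.85), with CSLA9 5.3-fold and the chitinase-like gene CTL1 2.57-fold lower and CSLE1 5.68-fold higher. Expansins and xyloglucan enzymes had 18 lower and 10 higher of 41: XTH17 read 40.3, 23.9 and 26.9 in eds16 against 0, 2.16 and 0.976 in ceh1/eds16, and EXPB1 fell 13.1-fold, while the touch-induced XTH22 rose 6.93-fold. In cuticle and wax 24 of 39 fell and 2 rose, or 1 without eds16 replicate 2 or ceh1/eds16 replicate 2. CER4, MAH1 and WSD1 (6.35-fold lower) are enzymes late in wax synthesis, whereas CER6, which elongates its precursors, did not pass (2810 ± 63.6 and 2649.7 ± 199). Aquaporin genes fell in 15 of 21 cases, with TIP2;1 3.75-fold and PIP2A 3.26-fold lower. Cell cycle and replication genes fell in 29 of 73 cases by small amounts (median -0.30), with 7 of them at least 2-fold, such as CDC6 at 2.18-fold, and the inhibitor KRP6 rose 2.58-fold.

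Markers of vascular tissue and of flowers and bolting stems mostly fell, while most markers of trichomes and guard cells did not pass. Of 14 measured vascular markers 13 fell and none rose (median -1.02), their summed level being 3043 to 3552 in eds16 and 1477 to 1899 in ceh1/eds16, with none of them at 0. Of 9 measured markers of flowers and bolting stems 8 fell (median -1.63), with summed levels of 616 to 750.3 and 299 to 334. Of 6 trichome markers 4 did not pass, with summed levels of 214 to 228 and 202 to 205, and of 16 guard cell markers 11 did not pass, with summed levels of 30796 to 47875 and 23566 to 30633. Of the 13 root markers 2 were measured and BGLU23 rose, which is also an indole glucosinolate list member. No seed or pollen marker reached the mean of 10. The part of tissue make-up or of plant stage in the falls of growth and wall genes was not tested.

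Mitochondrial stress genes rose. Of 15 genes of alternative respiration and mitochondrial stress 11 rose and 2 fell (median 0.91), or 1 fell without any 1 of eds16 replicates 1 and 2 and ceh1/eds16 replicates 1 and 2. AOX1D read 0.96, 3.99 and 2.07 in eds16 against 173, 162 and 115 in ceh1/eds16, the carrier gene DIC2 read 25.9, 12 and 26.9 against 518, 625 and 913 (31.2-fold), and BCS1 rose 10.5-fold. All 3 were without overlap, while the alternative dehydrogenase gene NDA1 fell 4.03-fold. Glutathione transferases rose in 18 of 38 cases and fell in 7, and antioxidant enzymes were evenly split, with 13 higher and 13 lower of 39. The reductases MDAR3 and MDAR2 rose 13.6-fold and 3.48-fold, CAT3 rose 1.44-fold and the thylakoid peroxidase TAPX fell 2.12-fold. The CAT3 call did not pass with no filter on low values.

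Senescence and dark-inducible genes rose in 17 of 22 cases and none fell (median 1.27). BT2, a BTB and TAZ domain protein that responds to sugar and light, read 49.9, 57.2 and 81.8 in eds16 against 1686, 2185 and 2317 in ceh1/eds16 (32.7-fold), and SAG21 rose 25.5-fold. The dark markers ASN1 (477 ± 15.4 and 451 ± 98.5), SEN1 (353 ± 50.5 and 297 ± 38.3) and DIN3 (328 ± 38 and 299 ± 34.7) did not pass. Sugar transport and starch genes were split, with 21 higher and 25 lower of 73: the amylase AMY1 rose 13.8-fold, the exporter SWEET12 9.37-fold and the plastid transporter GPT2 16.6-fold, while SWEET13 fell from 68.1, 70.5 and 62.2 to 4.45, 4.32 and 4.88 (12.2-fold).

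Nutrient genes had no single direction. In nitrogen transport and assimilation 13 of 40 rose and 11 fell, with the nitrate transporter NRT1.8 at 10.9-fold and the amino acid importer LHT1 at 7.16-fold higher and the plastid glutamine synthetase GLN2 at 1.43-fold lower. In phosphate starvation 10 of 24 rose and 3 fell. In the iron list 11 of 36 rose and 14 fell, with the metallothionein MT2A 6.26-fold higher, the chloroplast reductases FRO6 and FRO7 2.97-fold and 2.63-fold lower and the ferritin FER1 not passing (1741 ± 618 and 1739 ± 216). Abscisic acid genes rose in 18 of 41 cases and fell in 10, the catabolic hydroxylase CYP707A3 rising 4.64-fold and the synthesis gene NCED3 falling 2.85-fold. In flowering time 11 of 34 fell and 5 rose, with the repressors SMZ and TEM1 9.22-fold and 6.08-fold higher and AP1 4.76-fold lower.

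Whether the ceh1 effect differed between plants with and without ICS1 was tested as an interaction, which passed for 4.87% of genes tested, 3.08% higher and 1.79% lower without ICS1. The count rested strongly on the libraries: 891 genes were called in all and 3013 without ceh1/eds16 replicate 3, while leaving out Col-0 replicate 2 gave 432, ceh1 replicate 1 or 2 gave 348 or 355, eds16 replicate 1 or 2 gave 411 or 469, and ceh1/eds16 replicate 2 gave 498. Of the genes called in the comparison 640 were also called in the interaction. Among the named genes with a larger rise without ICS1 were the oxygenase JMJD5, which is part of the clock, at 12.5, 6.65 and 16.6 in eds16 against 269, 337 and 494 in ceh1/eds16, and FMO1, CYP71A12 and MYB51 with differences of 3.64 ± 0.45, 2.06 ± 0.37 and 1.32 ± 0.20. Among those with a smaller rise was WRKY38, at 4.8, 5.32 and 5.18 against 9.78, 7.55 and 11.7. The call of its small rise did not pass with edgeR or DESeq2 or from the 6 libraries alone. Nor did it pass without eds16 replicate 1 or ceh1/eds16 replicate 3. Another was ARD3, of methionine salvage, which did not pass in the comparison at 15.4, 9.31 and 16.6 against 22.2, 15.1 and 20.5.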

How the data were processed

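Per the submitters' processing notes the authors used TopHat2, DESeq2 and TAIR10, and the sources used here name no version and no counting tool. The deposited table holds a normalized signal per gene and library, that is, read counts divided by 1 DESeq2 size factor per library. In each library 100% of values were whole multiples of 1 step within 0.01, so reads could be recovered for library totals and for edgeR 4.0.16 and DESeq2 1.42.0 as alternatives. Of the 33602 genes, 4115 had no read.

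The main test was limma 3.58.1 in R 4.3.3 on log2(value + 1) with a variance trend and a model of 4 genotype means over 12 libraries (8 residual and 8.69 prior degrees of freedom). Tests were two-sided, with Benjamini-Hochberg adjustment over 18289 genes and a threshold of 0.05. The interaction was the change from eds16 to ceh1/eds16 minus that from Col-0 to ceh1. The fit was tested on simulated data with the same dispersion for all genes and no trend with gene length. That test therefore does not cover the library differences described above. The 3 samples per genotype are biological replicates per the series' design text.

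The comparison, the gene lists and the rules were chosen with earlier results of these data known, so lists are described by counts and medians only. Of list entries, 2091 were matched to the TAIR10.1 RefSeq table by symbol, 415 by synonym and 64 by locus, and 101 had no match. Genes were named by fixed rules: the 15 largest changes in each direction with no overlap, up to 3 members of each list that were highest, lowest or not called, every member of lists of up to 12, and the 10 largest interactions in each direction. Near-identical genes may share reads. Alternatives covered the pseudocount, filters, scaling, the variance model, a replicate block and leaving out each library.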

Additional observations from a re-analysis of the deposited data

Results flagged for a closer look

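The ceh1 effect differed between plants without and with ICS1, by the interaction term of the limma model, for the genes below, which are the 10 largest in each direction among called genes with a symbol and at least 100 normalized counts in 1 group. Each difference is on the log2 scale and is the change from eds16 to ceh1/eds16 minus the change from Col-0 to ceh1.

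Effects that were more positive without ICS1 included those of the defensins and their factor. The difference was 5.25 for PDF1.3 (6.89 without and 1.64 with ICS1), 5.15 for PDF1.2 (4.73 and -0.42), 4.96 for PDF1.2c (4.89 and -0.07), 4.53 for PDF1.2b (5.09 and 0.56) and 2.98 for ORA59 (4.3 and 1.33). It was 4 for JMJD5 (4.87 and 0.86), 3.64 for FMO1 (6.32 and 2.68), 3.31 for the dark-inducible gene DIN11 (4.58 and 1.27), 3.12 for COR27 (6.32 and 3.2) and 2.91 for BT2 (5.03 and 2.12). The PDF1.3 difference did not pass with edgeR.

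Effects that were more negative without ICS1 included those of genes known to respond to salicylic acid. The difference was -4.41 for WRKY38 (0.79 without and 5.21 with ICS1), -3.86 for ARD3 (0.48, not called, and 4.34), -3.66 for PR1 (0.95 and 4.61), -3.14 for NIMIN1 (1.03 and 4.18) and -3.01 for the xyloglucan enzyme gene XTH10 (0.69, called only without ceh1/eds16 replicate 2 or with DESeq2, and 3.70). It was -2.48 for the amino acid transporter family gene LHT7 (2.4 and 4.89), -2.14 for the B-box gene BBX18 (-2.08 and 0.05), -2.07 for PCC1, a gene under pathogen and clock control (-0.29, called only without ceh1/eds16 replicate 3, and 1.78), -1.94 for the carboxypeptidase-like gene scpl16 (0.82 and 2.76) and -1.83 for the cytochrome P450 gene CYP71B2 (-2.35 and -0.52). The LHT7 difference did not pass without ceh1 replicate 1 or 2.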

How the results depend on the processing

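The comparison of ceh1/eds16 with eds16 gave 7736 called genes, 8097 with no filter on low values, 6245 with a filter at a mean of 50, 6574 from the 6 libraries alone, 7793 with edgeR and 7689 with DESeq2 on the recovered reads, and 6513 to 7992 when single libraries were left out (3482 to 4118 higher, 3031 to 3874 lower). With a fold of at least 2 also asked for, 3206 were called, 1836 higher and 1370 lower. An equal upper quartile gave 3510 higher and 4415 lower.

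The interaction count was less stable. It was 593 (201 lower) with no filter on low values, 554 (334 higher) with no variance trend, and 348 to 3013 without single libraries (241 to 1684 higher, 105 to 1329 lower). Equal library totals gave 328 higher and 586 lower, and DESeq2 gave 493 lower. The cause was not tested.

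Replicate numbers showed no clear pairing of the eds16 and ceh1/eds16 libraries, though so few pairs cannot exclude a shared batch. Deviations of same-numbered eds16 and ceh1/eds16 libraries correlated at -0.00708, -0.07 and 0.0485, and 1 of 3 matched its own number best. With the replicate block the comparison gave 7283 and the interaction 566 called genes (366 higher, 200 lower). Library depth limits genes of few reads: 15313 of 33602 genes were not tested. The sources used here do not state the annotation, strand or counting behind the values.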
